A study of Mus musculus with 69 samples.

Results

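Open chromatin, which is DNA that nucleosomes leave free, is marked by ATAC-seq, where an enzyme (Tn5) inserts adapters wherever it can reach the DNA, and sites with many insertions are called as peaks. The regions described here are 1446 stretches of open chromatin of mouse embryonic stem cells (ESCs) that lay away from transcription start sites (TSSs) and had a peak in both wild type (WT) libraries and in none of the 4 H3.3K27R mutant libraries. They were chosen by the peak lists alone: the 60000 peaks with the highest -log10 q in each of the 6 lists, on chromosomes 1 to 19, were merged where they overlapped by at least 1 bp, and a region was kept if it lay off chromosome 11 and over 1 kb from every annotated TSS. The 1446 regions came from 77290 merged regions in all and were 4.5% of the 32144 distal regions with a peak in both WT lists. Because the peaks chose them, their presence in WT and absence from the mutants is a description and was not tested, whereas the mRNA counts of their nearest genes took no part in the choice.

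WT was the J1 ESC line, derived from the inner cell mass of a 129S4/SvJae blastocyst. Mut18 and Mut43 were 2 clones of these cells in which CRISPR-Cas9 had changed lysine 27 of histone H3.3 to arginine in the endogenous H3f3a and H3f3b genes. All lines were grown on feeder cells and passaged without feeders shortly before harvest. Each line gave 2 biological replicates for ATAC-seq and 2 for mRNA-seq, so that each comparison set 2 WT against 4 mutant libraries, and a difference between WT and mutants cannot be told apart from a difference between the parental line and 2 edited clones that are each a single lineage.

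The peak lists held 61745 to 76114 peaks on chromosomes 1 to 19, the longest of them in WT replicate 1, and the lowest -log10 q among the 60000 kept was 13.91 and 10.71 for the WT lists, 8.904 and 11.47 for Mut18 and 10.95 and 9.871 for Mut43. The lists carry no read numbers, so the depth behind a missing peak is unknown. The mRNA-seq libraries held 14992756 to 15143998 counts. ESC markers were high in all 6 libraries (Pou5f1, which encodes Oct4, 12090 and 12810 normalized counts in WT and 10010 to 10620 in the mutants). WT replicate 1 stood apart in some genes of fibroblasts, the cell type of feeder layers: Dpt, a dermal matrix protein, had 124 normalized counts there, 0 in WT replicate 2 and 0 to 5.09 in the mutants, and Col6a1, a collagen chain, had 428, 57.8 and 21.3 to 34.0.

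Distal open regions are mostly enhancers, where transcription factors bind and displace nucleosomes, or sites of the insulator protein CTCF. In active enhancers the nucleosomes that flank the open DNA often carry H3.3 acetylated at lysine 27. The mammalian genome also holds very many copies of retrotransposons such as LINE-1, whose young copies carry a promoter at the 5′ end and a long open reading frame for a reverse transcriptase, and parts of such copies can be open in ESCs. AP-1 is the dimer of Fos and Jun family proteins, and TEAD factors bind DNA for the coactivators Yap1 and Wwtr1 of the Hippo pathway. Both are found at enhancers of many cell types.

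The regions fell into 2 broad kinds by sequence, those that were mostly repeat (soft-masked in the genome) and those that were not. Examples of each were read from the RefSeq genome of GRCm38 (the same build as mm10), plus strand, in the 200 bp around the strongest summit. Among those that were mostly repeat, 4 families were found by 20-base words that the regions share with each other, and they were named A to D. The families were defined after the sequences had been seen, and no repeat annotation was used. Capitals mark the stretches covered by words at the core of the family, and the 2 members of family B show how alike copies on different chromosomes were.
Family A, near Itgbl1, at chr14:123740390-123740589: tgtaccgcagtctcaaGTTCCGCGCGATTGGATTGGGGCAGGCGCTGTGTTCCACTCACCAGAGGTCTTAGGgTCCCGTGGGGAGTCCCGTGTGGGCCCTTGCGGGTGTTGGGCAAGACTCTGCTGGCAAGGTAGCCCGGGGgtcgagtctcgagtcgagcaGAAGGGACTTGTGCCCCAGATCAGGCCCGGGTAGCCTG
Family B, near D3Ertd751e, at chr3:41769904-41770103: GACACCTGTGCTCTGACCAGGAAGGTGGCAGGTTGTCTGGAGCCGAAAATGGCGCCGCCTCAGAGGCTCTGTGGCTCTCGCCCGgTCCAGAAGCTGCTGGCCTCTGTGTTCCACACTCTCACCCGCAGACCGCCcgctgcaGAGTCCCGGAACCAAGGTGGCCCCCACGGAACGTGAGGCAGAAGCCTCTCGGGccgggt
Family B, near Arl6ip6, at chr2:53367122-53367321: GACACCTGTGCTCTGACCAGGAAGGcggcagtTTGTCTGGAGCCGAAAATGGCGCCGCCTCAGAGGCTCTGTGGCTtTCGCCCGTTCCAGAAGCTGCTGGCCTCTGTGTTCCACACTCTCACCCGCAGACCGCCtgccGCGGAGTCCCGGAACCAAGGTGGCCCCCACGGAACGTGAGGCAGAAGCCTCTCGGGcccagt
Family C, near Shox2, at chr3:66836162-66836361: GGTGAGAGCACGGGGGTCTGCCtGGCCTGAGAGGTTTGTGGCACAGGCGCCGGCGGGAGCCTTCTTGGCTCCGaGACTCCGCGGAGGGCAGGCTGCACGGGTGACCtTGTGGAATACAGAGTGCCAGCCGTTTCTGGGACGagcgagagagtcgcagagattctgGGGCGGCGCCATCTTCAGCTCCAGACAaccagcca
Family D, near Pglyrp1, at chr7:18318505-18318704: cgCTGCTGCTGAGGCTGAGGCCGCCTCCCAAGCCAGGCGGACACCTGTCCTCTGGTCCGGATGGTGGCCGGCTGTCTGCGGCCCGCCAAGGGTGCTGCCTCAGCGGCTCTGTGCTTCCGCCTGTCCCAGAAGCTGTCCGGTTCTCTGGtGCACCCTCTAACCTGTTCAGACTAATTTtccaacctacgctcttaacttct

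The unique kind is shown by the region with the strongest WT peaks and by 3 of the 4 strongest regions that held both an AP-1 and a TEAD motif. Capitals mark the letters of AP-1 (TGANTCA) and TEAD (GGAATG, or CATTCC on the other strand). In the window near Nfkbiz the TEAD letters recurred 3 times in near-identical copies, and in the window near Eif2ak3 the AP-1 and TEAD letters overlapped and ran together.
Nearest gene Nfkbiz, at chr16:55378772-55378971: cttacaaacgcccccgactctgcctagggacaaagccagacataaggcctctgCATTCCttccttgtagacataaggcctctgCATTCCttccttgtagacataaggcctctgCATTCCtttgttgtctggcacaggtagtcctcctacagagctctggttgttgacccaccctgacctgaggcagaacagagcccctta
Nearest gene Nxnl2, at chr13:51229057-51229256: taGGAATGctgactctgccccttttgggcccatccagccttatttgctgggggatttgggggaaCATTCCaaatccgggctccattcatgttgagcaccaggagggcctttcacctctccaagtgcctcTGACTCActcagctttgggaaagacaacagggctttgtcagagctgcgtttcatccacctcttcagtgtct
Nearest gene Eif2ak3, at chr6:70872255-70872454: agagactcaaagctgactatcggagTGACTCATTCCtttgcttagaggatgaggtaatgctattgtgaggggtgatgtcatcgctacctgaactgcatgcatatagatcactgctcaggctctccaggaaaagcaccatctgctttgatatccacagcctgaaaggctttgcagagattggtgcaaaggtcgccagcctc
Nearest gene Adamts5, at chr16:86094603-86094802: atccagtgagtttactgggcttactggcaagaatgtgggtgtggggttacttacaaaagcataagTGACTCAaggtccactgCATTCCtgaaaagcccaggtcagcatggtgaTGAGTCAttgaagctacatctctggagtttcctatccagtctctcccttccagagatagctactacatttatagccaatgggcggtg

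As peaks, the regions were weak. The lower of the 2 WT -log10 q values had a median of 14.1 and a highest value of 32.1, against a median of 24.2 and a highest value of 260 in the 24965 distal regions with a peak in all 6 lists, called shared regions from here on. Their median rank was 48555 of 60000 in WT replicate 1 and 48590 in WT replicate 2. The peak at the edge of the rule had a -log10 q of 13.91 on either side of it in WT replicate 1 and of 10.71 in WT replicate 2. The member closest to a TSS lay 1004 bp away, and 314 regions with the same peaks lay at or under 1 kb, as far as 1000 bp. Of all distal regions with a peak in both WT lists, 24965 had a peak in all 4 mutant lists, 2822 in 3, 1685 in 2, 1226 in 1 and 1446 in none. Divided into 4 groups of about equal size by WT strength, 13.2% of the weakest group had no mutant peak, and 0.0374% of the strongest group, which was 3 regions.

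**Figure D1:**
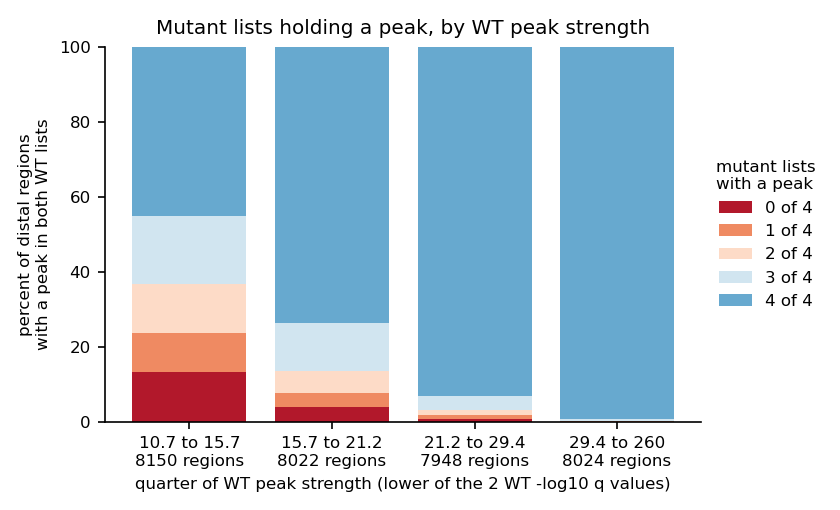
Stacked bars give the percent of distal regions with a peak in both WT lists that had a peak in 0, 1, 2, 3 or 4 of the mutant lists, for 4 groups of WT peak strength (lower of the 2 WT -log10 q values). The share with no mutant peak went from 13.2% in the weakest group to 3.81%, 0.742% and 0.0374%.

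Most of the regions overlapped no listed mutant peak of lower rank either, but few such peaks were listed. The mutant lists held 61745 to 67790 peaks on chromosomes 1 to 19, of which 60000 were kept. Among the 1446 regions, 1072 (74.1%) overlapped no listed mutant peak at all, 255 overlapped a peak of lower rank in 1 mutant list, 87 in 2, 28 in 3 and 4 in all 4. A kept mutant peak lay within 500 bp without overlap in 47 (3.25%). The same rule applied to each clone gave fewer regions: 332 of 31139 distal regions (1.07%) had a peak in both Mut18 lists and in no other list, and 329 of 30937 (1.06%) in both Mut43 lists and in no other. These counts set 1 line against 2 others in each case, but the mutant clones share their edits and their parental line. Distal regions with a peak in all 4 mutant lists and neither WT list numbered 809. The membership depends on the number of peaks kept: with 40000 peaks per list the rule found 970 regions, which held 145 (10.0%) of the 1446.

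The regions were narrower than shared regions and lay farther from TSSs. Widths are those of merged peaks, from the 2 WT lists here and from all 6 lists in shared regions. Merging more lists can widen a region, so the widths are not directly comparable. Their median width was 249 bp (quartiles 198 and 354 bp, longest 1072 bp), against 456 bp in shared regions and 351 bp in the weakest of 4 strength groups of shared regions, whose median -log10 q was also 14.1. The width moved with the peak rule, and the median was 375 bp with 40000 peaks per list and 167 bp without the list of WT replicate 1. The middle of 790 regions (54.6%) lay between genes, of 593 (41.0%) in introns and of 63 (4.36%) in exons. In shared regions these shares were 51.8%, 42.4% and 5.75%. The median distance to any annotated TSS was 18560 bp, against 12272 bp in shared regions. The median distance to the TSS of the nearest gene of the count table was 70069 bp, against 29711 bp in shared regions, 20955 bp in their weakest group and 17762 bp in the 809 regions of the mutants only. A distance over 200 kb was found for 418 regions (28.9%), against 15.5% of shared regions. By chromosome, the share of distal regions with both WT peaks that had no mutant peak ran from 2.18% (32 of 1466) on chromosome 17 to 6.45% (123 of 1906) on chromosome 3. Most lay alone: of the runs of neighbouring regions with WT peaks only, 1563 held 1 region, 83 held 2, 9 held 3 and 1 held 4, counting also those near a TSS.

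The 8 regions with the strongest WT peaks were of mixed kinds. The strongest, chr16:55378700-55379110, lay between genes, 440 kb from Nfkbiz, a nuclear regulator of NF-kappa-B, with -log10 q values of 32.1 and 38.1 and fold enrichments of 10.6 and 14.4 in WT. Next came 3 copies of family A, in an intron of Itgbl1 and nearest to Cpeb2 and Ccdc132, with -log10 q values of 44.7 and 31.8, 34.2 and 29.8, and 44.6 and 29.4. The copy in D3Ertd751e belonged to family B (33.2 and 29.4). The remaining 3 were in no family: a region in an intron of Steap3 nearest to 3110009E18Rik (41.2 and 28.7), one nearest to Snhg8 (28.8 and 27) and one nearest to Plekha5 (26.2 and 26.9). The region near Itgbl1 overlapped a lower-ranked peak in 2 mutant lists, the one near 3110009E18Rik in 1, and the other 6 in none.

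The 4 repeat families held 296 of the 1446 regions (20.5%). Family A had 167, B 46, C 45 and D 38, on 14 to 18 chromosomes each. All were rich in G and C, with a median of 62.5% to 66.5% in the window, and they lay in regions poor in genes, with median distances of 211000 to 243000 bp to the nearest TSS of the count table. An open reading frame of at least 1000 codons lay within 8 kb of the summit in 47 of the 167 regions of family A, 3 of 46 of B, 14 of 45 of C and 8 of 38 of D, against 14 of 1150 regions (1.22%) in no family. Another 219 regions (15.1%) outside the families were mostly repeat, with at least 50% of the window soft-masked in the genome, and 931 (64.4%) were not.

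Families differed in how many of their open copies were found in WT only. Of 68 distal copies of family B with a peak in both WT lists, 46 (67.6%) had no mutant peak and 4 had a peak in all 4 mutant lists. The share was 13.8% for C (45 of 325), 9.58% for A (167 of 1743) and 4.12% for D (38 of 923), and 3.95% for distal regions in no family (1150 of 29085). Counted over all kept peaks that held a core word, family B had peaks of 73 and 69 in WT, against 13 and 11 for Mut18 and 13 and 11 for Mut43. For family C these numbers were 171 and 164 in WT and 80 to 92 in the mutants. Family A had 1763 and 1769 peaks in WT and 1328 to 1403 in the mutants, and family D 885 and 868 against 719 to 756. In each family the 2 WT lists stood above all 4 mutant lists. The core words came from regions that the rule had chosen for WT peaks only, so these autosomal numbers are a description.

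**Figure D2:**
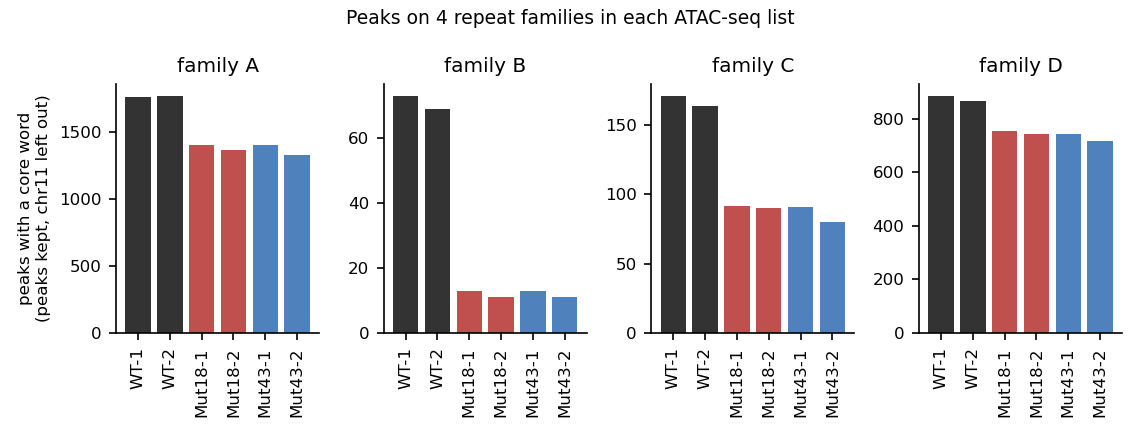
Bars give the number of kept peaks that hold a core word of repeat families A to D in each of the 6 ATAC-seq lists (WT in black, Mut18 in red, Mut43 in blue), each panel with its own axis from 0. Family B has 73 and 69 peaks in WT and 11 to 13 in each mutant list.

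Chromosomes 11 and X, which the rule left out, give counts of family A that the choice did not use. On chromosome 11, listed peaks with a family A word numbered 51 and 46 in WT and 41 to 47 in the mutants, so that the groups overlapped. The X chromosome held more of them. Listed X peaks with a family A word numbered 233 and 218 in WT, against 169 and 174 for Mut18 and 177 and 162 for Mut43. All listed X peaks were also more numerous in WT (2256 and 2012, against 1719 to 1881). As a share of X peaks, family A took 10.3% and 10.8% in WT and 9.01% to 9.83% in the mutants, with no overlap between the groups. The difference of the means was 1.12 percentage points (10.6% against 9.43%, n = 2 and 4, two-sided exact permutation p = 0.133, the smallest that 2 against 4 libraries can give). Family B had 1 listed X peak in each WT list and none in the mutants. How reads that match several copies were placed is not given in the sources used here, so a peak on a copy may also hold reads of others.

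Among the 931 regions that were not mostly repeat, TEAD and AP-1 letters were frequent. The TEAD letters lay in the window of 263 (28.2%), against 14.1% of the 17682 shared regions of the same kind, 12% of the weakest strength group of these and 12.5% of all merged regions that were not mostly repeat. AP-1 letters lay in 140 (15%), against 8.14%, 7.63% and 7.08%. One or the other was present in 357 (38.3%) and in 20.9% of shared regions, and both in 46 (4.94%) and in 1.32%. The TEAD share fell with the number of mutant lists that held a peak, from 28.2% with none to 18.1% with 1, 17.6% with 2, 16.2% with 3 and 14.1% with all 4. Read the other way, 13.3% of the distal regions with both WT peaks and both motifs (46 of 347) had no mutant peak, 7.58% of those with TEAD letters (263 of 3468) and 7.12% of those with AP-1 letters (140 of 1966), beside 4.08% of all regions that were not mostly repeat.

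The letters of CTCF, Klf factors and Zfp57 were rarer in these regions than in shared ones, and those of other factors were not or differed little. The CTCF pattern lay in 40 (4.3%), against 13.1% of shared regions, and only 1.4% of the distal regions that held it had WT peaks alone. The letters of the Klf factors (GGGNGTGGC) lay in 17 (1.83%), against 4.85%. The letters searched for Zfp57 (TGCCGC), which protects imprints, lay in 3.11% against 5.6%. Shares for the octamer bound by Oct4 (ATGCAAAT, 2.69% against 3.12%), Sox factors (CATTGTT, 4.73% against 4.3%), Esrrb (CAAGGTCA, 1.83% against 1.82%) and Stat3 (TTCCNGGAA, 1.29% against 0.956%) lay close to those of shared regions, as did that of the Tfcp2l1 pattern (8.59% against 9.1%). The letters of Gata factors (AGATAA) lay in 6.66% against 5.61%, those of Runx factors (TGTGGTT) in 4.3% against 3.85% and the SRF pattern in 1.07% against 0.769%, each somewhat more often than in shared regions. The strict Oct4-Sox2 composite was in none of the 931 and in 3 of 17682 shared regions, too few to compare. In the 809 regions of the mutants only, the 614 that were not mostly repeat held TEAD letters in 9.93%, AP-1 letters in 9.12% and Klf letters in 8.31%. Both strands were searched, a match is a description of letters and not of binding, and shares over regions have no replicates.

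**Figure D3:**
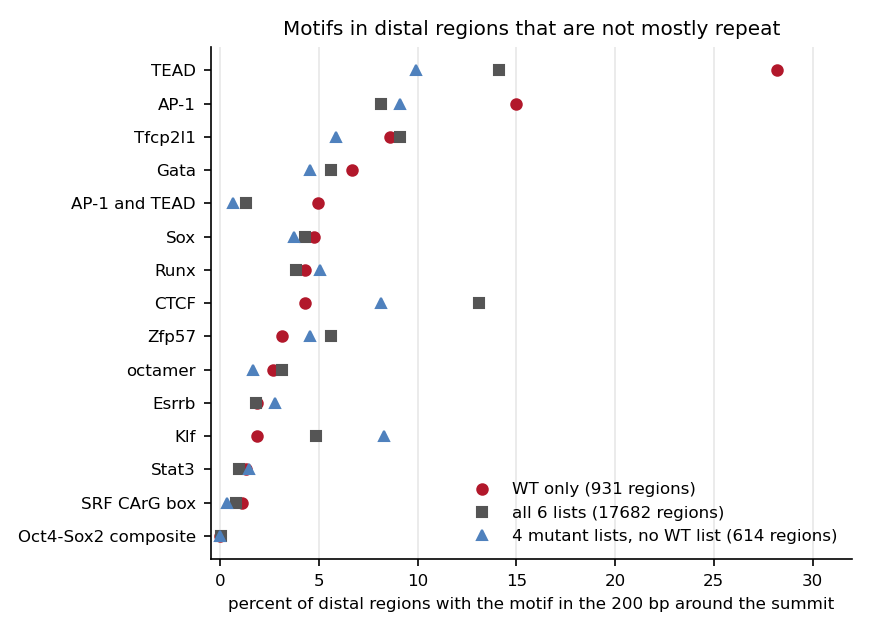
Points give the percent of distal regions, not mostly repeat, with each motif in the 200 bp around the summit, for regions with WT peaks only (red circles, 931), in all 6 lists (grey squares, 17682) and in the 4 mutant lists only (blue triangles, 614). TEAD and AP-1 stand at 28.2% and 15% in the WT-only regions and at 14.1% and 8.14% in shared regions.

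Genes of the factors that bind these letters were measured in the same lines. Of 31 tested genes on a list of motif factors, 4 were called lower in the mutants (adjusted p under 0.05 and over 2-fold, beside 5.65% of all tested genes) and none higher (beside 3.28%). These 4 were Tead3, Jun, Fos and Fosb. Tead3 had 195 and 210 normalized counts in WT and 76.1 to 98.1 in the mutants (log2 fold change -1.28, SE 0.12, edgeR adjusted p = 2.76e-08). Jun had 366 and 260 in WT and 130 to 166 in the mutants (-1.11, SE 0.12, edgeR adjusted p = 2.13e-07). Fos and Fosb were high in WT replicate 1 only: Fos had 210 there, 32.3 in WT replicate 2 and 34.4 to 37.5 in the mutants, and Fosb 118, 15.7 and 10.1 to 24.0. Tead2 passed the test at less than 2-fold, with 1800 and 1947 in WT and 1191 to 1255 in the mutants (-0.63, SE 0.045, edgeR adjusted p = 5.95e-10). Tead1 was also lower by less, with 2567 and 2566 against 1914 to 2104 (-0.34, SE 0.044, edgeR adjusted p = 1.68e-06). Tead4 went the other way, with 88.8 and 114 in WT and 130 to 156 in the mutants (0.46, SE 0.13, edgeR adjusted p = 0.00684). Tead1, Tead2 and Tead3 were thus lower in the mutants, and Tead4, which had the fewest counts of them in WT, was higher. Fosl2, Junb, Jund, Bach1 and Wwtr1 were lower at less than 2-fold (-0.74, -0.54, -0.32, -0.41 and -0.56), while Yap1 and Atf3 did not pass the test. Among pluripotency factors, Esrrb was higher in the mutants, with 3901 and 3944 in WT and 5083 to 5348 (0.41, SE 0.040, edgeR adjusted p = 3.68e-08). Klf2, Klf4, Sox2, Nr5a2, Tfcp2l1 and Stat3 were also higher, with log2 fold changes from 0.22 to 0.68. Pou5f1 was lower (-0.275, SE 0.0375, edgeR adjusted p = 4.22e-06), and Klf5 did not pass the test.

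The nearest genes of the regions were called lower in the mutants more often than tested genes as a whole. The regions lay at a median of 70069 bp from the TSS of these genes, against 29711 bp in shared regions. Shares by distance follow below. The 1446 regions had 1167 different nearest genes in the count table, of which 972 passed the filter on low counts and were tested. Of these 972, 162 (16.7%) were called lower in the mutants, at an adjusted p under 0.05 and over 2-fold, beside 5.65% of all 14061 tested genes. Only 13 (1.34%) were called higher, beside 3.28% of all. The median log2 fold change was -0.21, and it was -0.0041 over all tested genes. The nearest genes of shared regions gave 7.7% lower and 3.15% higher of 7403, with a median of -0.0405, and those of the mutant-only regions 4.92% and 4.32% of 671, with a median of 0.026. All 4 mutant libraries lay below both WT libraries for 512 of the 972 (52.7%), beside 30.4% of all tested genes, and above both for 152 (15.6%), beside 29.4%. In bulk cells, fewer cells of a type and less RNA per cell cannot be told apart.

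Each clone had more nearest genes called lower than higher. Against WT, 126 of the 972 (13.0%) were called lower in Mut18 and 195 (20.1%) in Mut43, beside 4.74% and 6.81% of all tested genes, and 118 were called in both clones, beside 4.3% of all. Those called higher were 8 in Mut18 and 13 in Mut43, beside 2.79% and 3.49% of all. Without WT replicate 1 of the mRNA-seq, where Dpt and Col6a1 were highest, the median log2 fold change of the nearest genes was -0.176. Some other fibroblast genes were as high in WT replicate 2, such as S100a4, with 125 and 145 counts in WT and 26.3 to 48.1 in the mutants. By kind of region, 22.1% of 195 tested genes nearest to a family copy and 15.2% of 698 nearest to a region that was not mostly repeat were called lower. Shared regions of the same kinds gave 19.4% and 6.92%, so that the 2 shares lay closer together near family copies than near the other regions. Regions with AP-1 or TEAD letters (14.6% of 280 genes) stood close to those with neither (15.8% of 448).

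The share of nearest genes called lower was smallest close to the regions, in shared regions as well. It was 7.56% of 172 genes within 10 kb, 15.6% of 352 from 10 to 50 kb, 21.7% of 138 from 50 to 100 kb, 21.1% of 166 from 100 to 200 kb and 22.4% of 259 over 200 kb. For shared regions the shares in the same bins were 4.88%, 7.63%, 12.7%, 16.7% and 21.7%. The WT-only regions thus lay above the shared ones in each bin, by the widest margin in percentage points from 50 to 100 kb and by the narrowest over 200 kb. Genes that were the nearest to at least 2 of the regions were called lower in 40 of 166 tested (24.1%), beside 5.65% of all tested genes. No such count was made for shared regions, and distance was not held fixed.

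**Figure D4:**
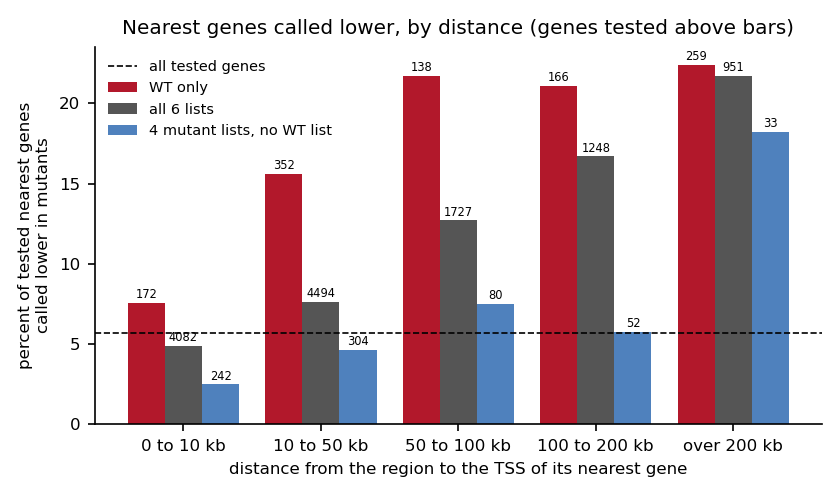
Bars give the percent of tested nearest genes called lower in the mutants (edgeR adjusted p under 0.05 and over 2-fold), by distance from the region to the TSS of its nearest gene, for regions with WT peaks only (red), in all 6 lists (grey) and in the 4 mutant lists only (blue). Numbers above the bars are genes tested and the dashed line is the 5.65% of all tested genes, and the WT-only bars run from 7.56% within 10 kb to 22.4% over 200 kb.

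Meg3, a maternally expressed long noncoding RNA of the imprinted Dlk1-Dio3 region, fell most among the named nearest genes. It had normalized counts of 3048 and 3025 in WT, against 182 and 155 for Mut18 and 141 and 162 for Mut43 (log2 fold change -4.24, 95% interval -4.36 to -4.12, edgeR adjusted p = 6.27e-22). The mutant libraries lay far below the WT ones and close to each other. Its region, chr12:109539110-109539374, lay 1.76 kb from the Meg3 TSS, between genes, with -log10 q values of 20.9 and 12.9 and no listed mutant peak. A region 40.5 kb from the TSS of Dlk1, the paternally expressed gene of the locus, at chr12:109500071-109500546, was stronger (34.0 and 25.8) and also had no listed mutant peak. With another one near Rtl1, which lay within 1 kb of a TSS, they formed a run of 3 regions with WT peaks only over 95.3 kb. Dlk1 had 149 and 130 counts in WT and 67 to 90.1 in the mutants (-0.85, SE 0.14, edgeR adjusted p = 4.06e-05), which is under 2-fold. Rian and Mirg, the next noncoding transcripts of the locus, were not nearest to any of the regions and fell likewise, Rian from 5861 and 5634 to 288 to 340 and Mirg from 338 and 336 to 9.01 to 16.2. The windows of the distal pair, shown because of the size of the change in Meg3, held neither AP-1 nor TEAD letters, so nothing is capitalised.
Nearest gene Dlk1, at chr12:109500219-109500418: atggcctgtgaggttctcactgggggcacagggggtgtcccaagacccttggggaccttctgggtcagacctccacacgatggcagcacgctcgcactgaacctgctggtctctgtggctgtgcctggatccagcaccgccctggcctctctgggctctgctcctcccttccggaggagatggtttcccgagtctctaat
Nearest gene Meg3, at chr12:109539123-109539322: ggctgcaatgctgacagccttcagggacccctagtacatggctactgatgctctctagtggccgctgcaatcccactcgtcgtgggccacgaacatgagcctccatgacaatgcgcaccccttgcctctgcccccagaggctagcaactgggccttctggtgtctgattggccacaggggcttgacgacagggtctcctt

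Kcnj3, Gja1 and Has2 were also among the 10 genes called lower with the lowest p. Kcnj3, a potassium channel subunit, was nearest to 3 of the regions, the closest 30.5 kb away, and had counts of 839 and 862 in WT, against 294 and 299 for Mut18 and 230 and 215 for Mut43 (log2 fold change -1.71, SE 0.093, edgeR adjusted p = 1.10e-11). Gja1, which encodes a connexin of gap junctions, had 4275 and 4185 in WT and 1842 to 2083 in the mutants, with its region 417 kb away (-1.10, SE 0.044, edgeR adjusted p = 1.21e-13). Has2, the hyaluronan synthase, had 333 and 349 in WT and 63.9 to 96.1 in the mutants, and its nearest region, 293 kb away, was a copy of family A (-2.11, SE 0.12, edgeR adjusted p = 2.37e-11). For each of these the mutant range lay wholly below the WT values. That held for 158 of the 162 nearest genes called lower, but being called lower favours such a gap. It held for 52.7% of the 972 tested nearest genes and for 30.4% of all tested genes.

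The remaining 6 were of various kinds. Adgrl2, an adhesion receptor of the latrophilin family, was nearest to 4 regions from 15.2 to 855 kb away, with counts of 2026 and 2041 in WT, against 837 and 843 for Mut18 and 816 and 812 for Mut43 (log2 fold change -1.30, SE 0.0425, edgeR adjusted p = 5.77e-15). Marcks, a substrate of protein kinase C, had its region 1.71 kb from the TSS and 1530 and 1467 counts in WT against 659 to 777 in the mutants. Prex2, an activator of the GTPase Rac, was nearest to 2 regions, one of them with AP-1 letters in its own intron 11 kb from the TSS, and had 417 and 391 counts in WT against 124 to 143. Sall2, a zinc finger transcription factor, was nearest to 3 regions from 189 to 264 kb away, with 898 and 928 against 391 to 427. Zscan4a, of the 2-cell-like state of ESC cultures, had 277 and 264 against 37.5 to 56.6, and Cyp2b23, a cytochrome P450, 210 and 193 against 20.3 to 37.0. Zscan4a and Cyp2b23 have near-identical copies in the genome, so reads may have been split among them, and the regions near them overlapped lower-ranked peaks in 2 and 3 mutant lists.

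**Figure D5:**
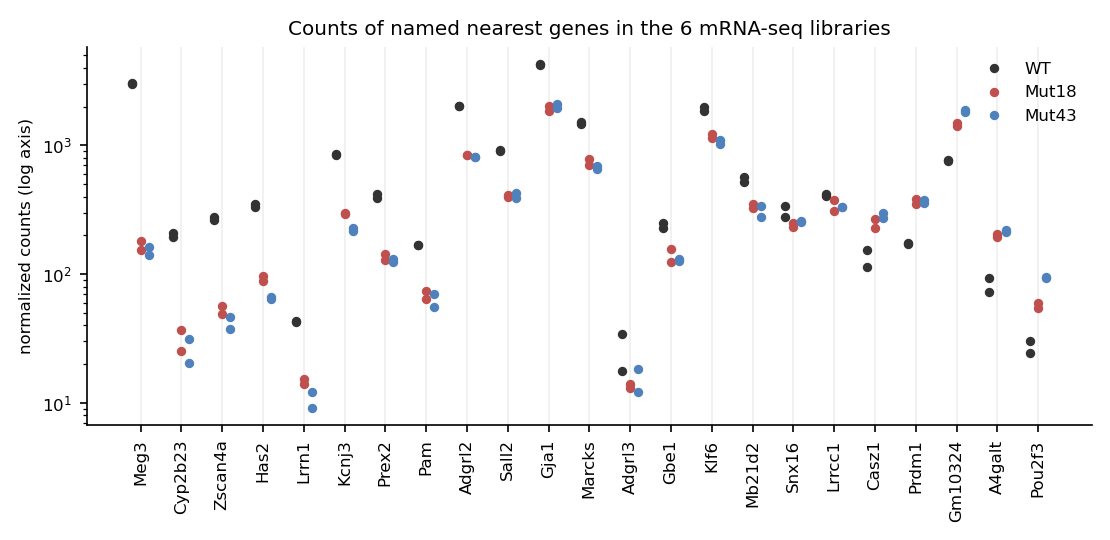
Points give normalized counts on a log axis in each mRNA-seq library (2 WT in black, 2 Mut18 in red, 2 Mut43 in blue) for the nearest genes named for their p-value or for 4 or more regions, with a WT mean of at least 20, ordered by log2 fold change. Meg3 is at 3048 and 3025 in WT and at 141 to 182 in the mutants, and 5 genes at the right are higher in the mutants.

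The 5 genes named among those called higher were Prdm1, Gm10324, A4galt, Casz1 and Pou2f3, since only these had a mean of at least 50 counts in WT or mutants. Prdm1, a transcriptional repressor that acts in germ cells and plasma cells, had counts of 173 and 172 in WT, against 384 and 351 for Mut18 and 358 and 375 for Mut43 (log2 fold change 1.09, SE 0.085, edgeR adjusted p = 2e-09). The region nearest to Prdm1, with TEAD letters, lay 25.3 kb away. A4galt, which makes the glycolipid Gb3, had 73.2 and 93.1 against 193 to 219, with the region in its own intron. Casz1, a zinc finger transcription factor, had 113 and 154 against 227 to 298, and its region also lay in its own intron. It stood at the 2-fold limit, with a log2 fold change of 1.00 with all libraries, 0.80 without WT replicate 1, and 0.945 to 0.996 without Mut18 replicate 2 or either Mut43 replicate, where it was no longer called. Pou2f3, a POU factor of tuft cells, had 24.4 and 30.4 against 54.1 to 95.4. Gm10324 had 774 and 753 in WT, against 1427 and 1506 for Mut18 and 1827 and 1881 for Mut43, with a family D copy 342 kb away. In all 5 the mutant libraries lay above both WT libraries, beside 29.4% of all tested genes, but being called higher favours such a gap. Gm10324 lies among near-identical genes, so its counts may be split among copies.

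Several regions shared a nearest gene. Of the 1167 genes, 963 were nearest to 1 region, 152 to 2, 34 to 3, 15 to 4, 2 to 5 and 1 to 7. Pam, which amidates peptide hormones, was nearest to 7 regions spread from 525 to 2900 kb from its TSS, and had 167 and 168 counts in WT and 55.8 to 73.8 in the mutants (log2 fold change -1.34, SE 0.13, edgeR adjusted p = 5.02e-08). Adgrl3 and Ctnna2, of neural adhesion, had 5 each but low counts, with 34.2 and 17.6 against 12.2 to 18.3 for Adgrl3, whose ranges overlapped. Ctnna2 was at 11.7 and 6.86 against 1.01 to 7.01 and was not tested. Among genes with 4 regions, Klf6, a zinc finger factor, had 1990 and 1866 in WT and 1028 to 1219 in the mutants (-0.78, SE 0.054, edgeR adjusted p = 3.24e-10), and Lrrn1 had 43.0 and 42.1 against 9.16 to 15.2 (-1.74, SE 0.26, edgeR adjusted p = 1.16e-05). Gbe1, Mb21d2, Snx16 and Lrrcc1 changed by less than 2-fold, with log2 fold changes from -0.82 to -0.28.

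The nearest genes of the 8 strongest regions stayed under a 2-fold change or were not tested. Nfkbiz had 117 and 85.3 counts in WT and 52.8 to 72.8 in the mutants (log2 fold change -0.70, SE 0.17, edgeR adjusted p = 0.00187), and Cpeb2, a regulator of translation, 109 and 84.3 against 50.7 to 71.1 (-0.64, SE 0.17, edgeR adjusted p = 0.00394). Without WT replicate 1 neither passed the test (edgeR adjusted p = 0.095 and 0.111). Plekha5 had 516 and 514 against 425 to 452 (-0.21, SE 0.067, edgeR adjusted p = 0.0123), and it did not pass without WT replicate 1 (0.0637), without WT replicate 2 (0.0578) or by DESeq2 (adjusted p = 0.052). Ccdc132, D3Ertd751e, 3110009E18Rik and Snhg8 did not pass the test, with log2 fold changes from -0.12 to 0.19, and Itgbl1 had at most 5.88 counts in any library and was not tested.

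Some nearest genes stood on lists of known function. Of 30 core and naive pluripotency genes 4 were nearest to a region, and none of these was called. Zfp42 had 7710 and 8154 counts in WT and 12260 to 13930 in the mutants (log2 fold change 0.72, SE 0.048, edgeR adjusted p = 2.02e-10), and the nuclear receptor Nr5a2 805 and 758 against 1145 to 1302 (0.65, SE 0.057, edgeR adjusted p = 1.14e-08), while Gbx2 was at 781 and 884 against 599 to 655 (-0.41, SE 0.063, edgeR adjusted p = 1.63e-05). Of the primed and mesendoderm genes 16 were tested and 6 called lower. The share called lower over all tested genes was 5.65%, and it stands beside the counts of the imprinted and 2-cell-like lists as well. Cdh2, the N-cadherin of mesenchymal cells, with its region 676 kb away, had 1014 and 1000 in WT, against 506 and 540 for Mut18 and 422 and 376 for Mut43. Foxa2, a factor of endoderm, had 10.7 and 14.7 against 0 to 2.03, and Eomes, a T-box factor, 188 and 200 against 100 to 140. Of the 34 tested imprinted genes 9 were called lower, among them Meg3, Rian and Mirg of the same locus. Meg3 was the one among the 9 that was nearest to a region. Of the 2-cell-like genes 5 of 8 tested were called lower, and Zfp352, nearest to 2 regions, had 11.7 and 13.7 against 3.0 to 6.09, and was not called without WT replicate 2 (edgeR adjusted p = 0.0681). Ep300, a histone acetyltransferase of enhancers, had 2800 and 2806 against 2578 to 2725 and did not pass the test (-0.08, SE 0.040, edgeR adjusted p = 0.108), and Hira, a chaperone that deposits H3.3, had 1471 and 1403 against 1151 to 1260 (-0.25, SE 0.048, edgeR adjusted p = 0.000209).

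Other lists gave few hits. The list of primitive endoderm had 1 gene called lower among 4 nearest ones, Foxa2 again, beside 5.65% of all tested genes. Col4a1, a basement membrane collagen, had 1936 and 1161 in WT and 1010 to 1093 in the mutants, so that WT replicate 1 stood above the other 5 libraries. None of 3 nearest trophoblast genes, 5 nearest signalling genes, 3 nearest contractile and matricellular genes and 2 nearest genes of coactivators and remodellers was called. Of these, Csrp1, a cytoskeletal LIM protein, was lower at under 2-fold, with 1198 and 1261 in WT against 789 to 877 (log2 fold change -0.55, SE 0.052, edgeR adjusted p = 2.77e-08).

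Fibroblast genes moved with the groups and stand beside these results. Of 24 fibroblast markers 21 were tested, with a median log2 fold change of -1.07. Of these, 11 were called lower in the mutants (beside 5.65% of all tested genes) and none higher (beside 3.28%). Their summed level was 19290 and 17230 normalized counts in WT and 15350 to 16440 in the mutants. Most of that sum was Fn1, which was not lower in the mutants (10920 and 11060 in WT, 11550 to 11710 in the mutants). Dpt and Lum were at 0 in WT replicate 2, and Fap at 2.94. Other markers stood above the mutants in both WT libraries. Lox had 373 and 323 in WT against 107 to 148, and S100a4 125 and 145 against 26.3 to 48.1. Timp3 did not stand apart, with 612 and 575 against 465 to 665. Of the 4 markers nearest to a region, Col5a1 was called, with 644 and 495 counts in WT and 236 to 292 in the mutants (log2 fold change -1.07, SE 0.097, edgeR adjusted p = 1.8e-08), and its region lay 27.8 kb away. Without WT replicate 1 its log2 fold change was -0.86, under 2-fold. Col5a2 and Mmp2 changed by less than 2-fold, with log2 fold changes of -0.85 and -0.56, and Thy1 did not pass the test. The part of fibroblast RNA or chromatin in the regions, in their AP-1 and TEAD letters and in the counts of their nearest genes was not tested.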

How the data were processed

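ATAC-seq and mRNA-seq of WT, Mut18 and Mut43 ESCs were used, 6 libraries each. Another 57 samples were left out and are not analysed here. Samples were grouped by the titles given with the deposited data.

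For ATAC-seq the authors deposited 1 peak list per library, replicates not pooled. The authors' peak caller gave each deposited peak a summit, the fold enrichment of its signal over background, and -log10 q beside -log10 p values. The submitters' processing notes name Bowtie2 2.3.4.2, SAMtools, deepTools 3.3.0 and MACS2 and the build mm10. Filters on duplicates and on reads with several matches, and any shift for Tn5, are not given in the sources used here. For mRNA-seq the authors deposited raw read counts for 16263 genes (notes: STAR, DESeq2). The counting program and strand setting are not given in the sources used here. No column of per-sample values was left unused.

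The 1446 regions were rebuilt with Python 3.11.15, pandas 2.3.3 and pysam 0.24.0, and ties at rank 60000 were ordered by fold enrichment, then position. TSSs came from GENCODE vM21 (GRCm38), and 15616 symbols were placed directly, 471 through RefSeq and 176 not at all. The nearest gene is the gene of the count table with the TSS closest to the middle of the region. Summits, soft masking, GC and 14 motifs were read in 200 bp. A family is a group of at least 20 regions linked by shared 20-base words.

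Counts were tested with edgeR 4.0.16 in R 4.3.3 (filterByExpr with a minimum count of 10 and a minimum total of 15, TMM, quasi-likelihood F-test, Benjamini-Hochberg over all 14061 tested genes, WT n = 2 against mutants n = 4), and called at an adjusted p under 0.05 and over 2-fold. A normalized count is a count scaled by the TMM library size. Each clone was tested in a fit with 3 groups. Replicates were described as biological, and replicates of a line differed by more than counting error (chi-square per gene 1.81 to 3.06). The steps were tested on simulated data.

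Named were the 8 regions with the strongest WT peaks and their nearest genes, the 10 nearest genes called lower and up to 6 called higher with the lowest p and a mean of at least 50 counts in WT or mutants, genes nearest to 4 or more regions (at most 10), and up to 4 nearest genes per list of 11 gene lists. Factor, fibroblast and ESC marker genes, Rian and Mirg were added after their values were seen. The regions and lists were chosen with earlier results of these data known. Alternatives were other peak numbers, rankings, overlaps and distances, other tests, filters and normalizations, a replicate block, other definitions of the nearest gene, and each library left out.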

Additional observations from a re-analysis of the deposited data

Results flagged for a closer look

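Among the named nearest genes, 3 differed between the mutant clones in a test of Mut18 against Mut43 (edgeR adjusted p under 0.05). Tgfb2, a growth factor with a region 175 kb away, was 0.57 higher in Mut18 than in Mut43 on the log2 scale (edgeR adjusted p = 0.00447), with 279 and 278 normalized counts in Mut18, 196 and 180 in Mut43, and 303 and 283 in WT. Cdh2 was 0.39 higher in Mut18 on the same scale (edgeR adjusted p = 0.0256). For Gm10324 the difference of Mut18 minus Mut43 was -0.34 (edgeR adjusted p = 0.000501), and it was above WT in both clones.

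In 3 genes, 1 of the 4 mutant libraries lay apart from the other three. Plekha5 had 425.2 normalized counts in Mut43 replicate 2 and 448 to 452 in the others. Pmepa1, a feedback inhibitor of TGF-beta signalling, had 374.5 in Mut43 replicate 1 and 405 to 409 in the others. Thy1 had 121.8 in Mut43 replicate 2 and 84.0 to 90.1 in the others. The criterion (Dixon's 95% critical value) sets about 1 gene in 20 apart by chance.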

How the results depend on the processing

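Under each alternative tried, nearest genes called lower outnumbered those called higher and the median log2 fold change of the nearest genes was below 0. The counts moved with the peak rule. Every listed peak gave 2195 regions, with 26 nearest genes called higher and a median log2 fold change of -0.16. Without the Mut43 lists these were 2233, 30 and -0.17, and without the Mut18 lists 2460, 24 and -0.163. Leaving out 1 peak list gave 1707 to 3274 regions, 186 to 259 genes called lower, 17 to 38 higher and medians of -0.202 to -0.15, where WT replicate 1 (3016 regions, 259 lower, 28 higher, -0.152) and WT replicate 2 (3274, 252, 38, -0.15) moved the most, and Mut43 replicate 1 gave 22 higher and -0.183. A limit of over 5000 bp from a TSS moved the median to -0.234. Regions within 50 kb of their nearest gene gave 67 lower and -0.165. A minimum count of 50 gave 93 lower, 4 higher and -0.168, and the share called lower was 12.1% of 767 tested nearest genes beside 3.63% of all genes. No filter gave -0.248 and TMM without chromosome 11 gave -0.184, where all genes had a median of 0.0215. With no fold threshold 448 (46.1%) were lower and 106 (10.9%) higher, beside 24.5% and 23.5% of all tested genes. Mut18 alone gave 8 higher. Leaving out 1 mRNA-seq library gave 139 to 177 lower, 10 to 13 higher and medians of -0.227 to -0.176, the last without WT replicate 1. DESeq2 called 147 lower and 9 higher. The causes of these shifts were not tested.

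With the replicate block, 162 were lower and 13 higher and the median was -0.209, and the block changed no count. Libraries with the same number did not deviate together (correlations -0.0121, 0.0239 and 0.000949), so the numbers do not pair the samples.

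Of 819 values of 59 named genes under the alternatives, 778 kept direction and side of an adjusted p of 0.05, 28 moved above it, 4 moved below it and 9 turned direction. Of 21 named genes called at over 2-fold, 5 lost the call under at least 1 alternative, namely Casz1 (log2 fold change 0.799 to 0.998), Gm10324 (0.941), Cdh2 (-0.946) and Col5a1 (-0.967), each with Mut18 alone among these alternatives, and Zfp352 (DESeq2 adjusted p = 0.0611). The 9 values that turned direction were of 3110009E18Rik (Mut18 alone 0.177, without Mut43 replicate 1 0.0764), Thy1 (Mut18 alone -0.11, without WT replicate 1 -0.0697, without Mut43 replicate 2 -0.123), Gata3 (Mut43 alone -0.301, without Mut18 replicate 1 -0.215, without Mut43 replicate 2 -0.0136) and Dnmt3a (without WT replicate 2 0.00268). Depth is unknown for the peaks, most of the regions lie near the rank limit, and a peak missing from a list is not shown to be closed chromatin.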
